A study of Mus musculus with 6 samples.

Results

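Perineuronal nets are mesh-like coats of extracellular matrix around neurons, and 9 genes for their structural proteins are described here: the lecticans *Acan*, *Bcan*, *Ncan* and *Vcan*, the link proteins *Hapln1*, *Hapln2* and *Hapln4*, and the tenascins *Tnr* and *Tnc*. They were chosen by symbol, and all 9 were found among the 24453 gene rows of the deposited expression table. The study is RNA sequencing of mouse visual cortex on postnatal day 14, with male animals of the C57BL/6J strain. The groups are *Chrdl1* knockout (KO) and wild type (WT), each with 3 libraries. The labels give no agent or second allele, do not say how the knockout was made, and do not state whether each library is 1 animal, so the p-values below reflect library-to-library spread alone, which may be technical. Each title carries a number that 1 WT and 1 KO library share, and these are called pair 1 (WT1013 and KO1013), pair 2 (WT1011 and KO1011) and pair 3 (WT1012 and KO1012). What the shared number stands for is not given in the labels. Animals were perfused with paraformaldehyde before the tissue was taken, and the library kit was a stranded one for mRNA.

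A net is built on hyaluronan, a long sugar chain. Lecticans are chondroitin sulphate proteoglycans that bind hyaluronan at one end and tenascins at the other, and link proteins clamp the lectican to the chain. In the cortex, nets are best known around parvalbumin interneurons, where they form as the critical period for ocular dominance closes, and digestion of their chondroitin sulphate in adults has been used to reopen plasticity. The juvenile brain matrix is known for neurocan, versican and tenascin-C, and the mature matrix for aggrecan, brevican, tenascin-R and the brain-specific link proteins. *Chrdl1* encodes a secreted antagonist of bone morphogenetic proteins made by astrocytes, and the comparison asks which transcripts differ without it.

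Values are FPKM, fragments per kilobase of exon scaled to the library's mapped reads, so levels of different genes can be set side by side, but only as relative levels within a library. Estimated depth ran from 22.6 to 38.2 M reads per library and was lower in KO than in WT within each pair. The label check held in all 6 libraries: *Chrdl1* stood at 3.09 to 3.65 FPKM in WT and 0.12 to 0.19 in KO. Excitatory cortical markers (8 of 8 tested) summed to 1080 to 1260 FPKM in WT and 1110 to 1300 in KO. Markers of striatal neurons (9 of 9 tested, none at 0) summed to 226 to 278 FPKM in WT and 111 to 271 in KO, and the choroid plexus gene *Ttr* read 149.6 FPKM in WT1013, 309.9 in KO1012 and 2.88 to 5.46 elsewhere. Their part in the results below was not tested. In bulk tissue, fewer cells of a type and less RNA per cell cannot be told apart.

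The window upstream of the start site is shown for 3 members whose levels differed between pairs, as described further on: *Ncan* and *Tnc*, higher in pair 1, and *Tnr*, higher in pair 2. Each is the 250 bases before the RefSeq start on GRCm38.p6, 5′ to 3′ on the gene's strand (*Ncan* chr8:70120845-70121094, minus strand, *Tnc* chr4:64047016-64047265, minus strand, and *Tnr* chr1:159523519-159523768, plus strand). Capitals mark the letters TATAAA, the TATA box motif, on either strand, wherever in the window they lie.
Ncan: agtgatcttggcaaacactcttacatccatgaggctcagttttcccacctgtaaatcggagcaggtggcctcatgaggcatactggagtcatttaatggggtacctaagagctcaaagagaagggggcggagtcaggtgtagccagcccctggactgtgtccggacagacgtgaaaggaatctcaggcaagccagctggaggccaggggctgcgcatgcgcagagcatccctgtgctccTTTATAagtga
Tnc: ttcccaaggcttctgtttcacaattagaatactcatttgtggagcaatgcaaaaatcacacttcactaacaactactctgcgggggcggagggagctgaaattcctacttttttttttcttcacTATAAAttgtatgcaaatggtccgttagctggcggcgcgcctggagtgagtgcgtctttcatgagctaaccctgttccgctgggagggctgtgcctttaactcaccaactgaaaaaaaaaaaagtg
Tnr: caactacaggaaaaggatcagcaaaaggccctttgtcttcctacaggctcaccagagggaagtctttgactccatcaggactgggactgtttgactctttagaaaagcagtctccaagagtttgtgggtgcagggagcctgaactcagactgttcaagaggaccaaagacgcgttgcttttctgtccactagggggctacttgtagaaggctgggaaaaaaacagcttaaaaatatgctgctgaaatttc
An entry was found for 8 of the 9 members, without *Hapln4*. TATAAA was found in 2 of the 8 windows (*Ncan* and *Tnc*), against 12.4% of 32851 windows of that length. The windows of *Hapln1* and *Vcan*, whose levels were also highest in pair 1, held none and are not shown. Counted from the start site, the match begins at -11 in *Ncan*, on the opposite strand, and at -126 in *Tnc*, on the gene's strand. GGCGCC, a core of the element through which BMP signals act, was in 0 of the 8 (9.59% of all windows), and the E-box CACGTG in 0 of the 8 (6.02%). Both strands were searched, and the 3 motifs share no sequence. These are matches of letters in a 250-base window and carry no information on binding.

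Genes for lecticans and for link proteins lie next to each other in the genome. In the mm10 coordinates of the table, *Bcan* and *Hapln2* on chromosome 3 are 21.4 kb apart, *Ncan* and *Hapln4* on chromosome 8 are 2.22 kb apart, and *Vcan* and *Hapln1* on chromosome 13 are 43.5 kb apart. *Acan* has *Hapln3*, which is no member, as its neighbour at 1.93 kb on chromosome 7, and no other gene of the table lies between the genes of any of these 4 pairs. Neighbours differed widely in level, except that *Acan* stood at 0.638 of the level of *Hapln3* (0.57 and 0.893 FPKM). *Bcan* read 112-fold higher than *Hapln2* over the 6 libraries and *Ncan* 9.02-fold higher than *Hapln4*, whereas *Vcan* stood at 0.275 of the level of *Hapln1*. No gene row of the table overlaps a member except *Mir7066*, which lies within *Ncan* on the same strand.

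**Figure D1:**
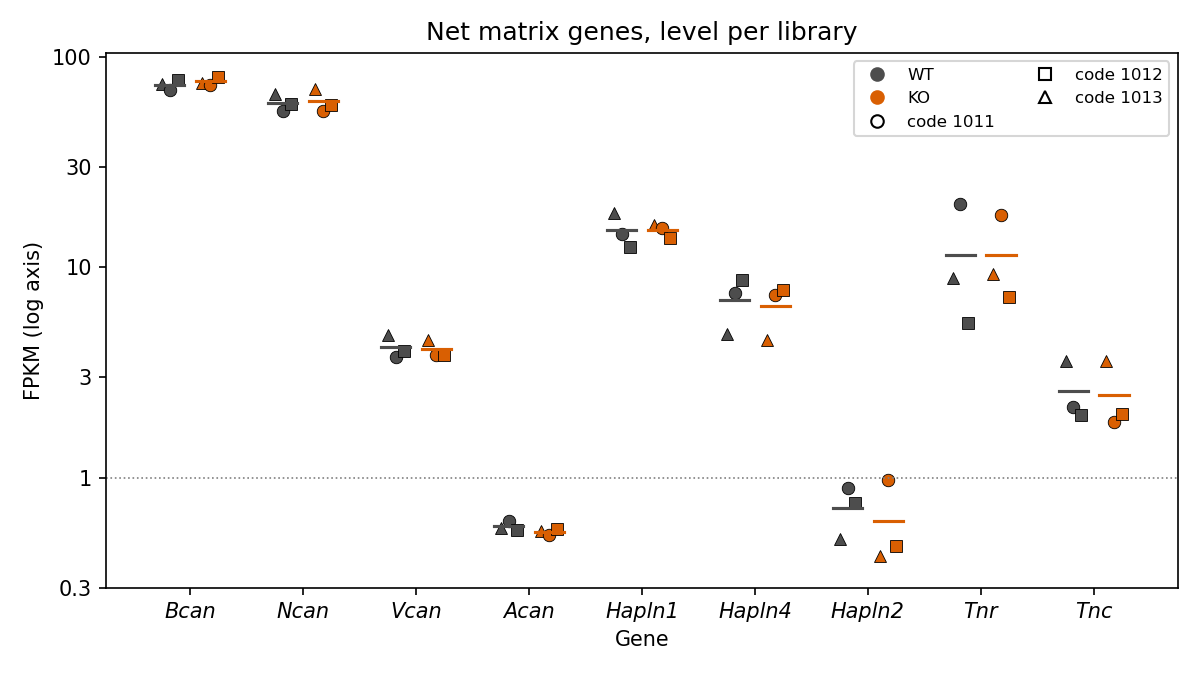
Level of each gene in FPKM on a log axis, WT in grey and KO in orange, with 1 point per library, the pair as the marker shape (WT1011 and KO1011 are pair 2, WT1012 and KO1012 pair 3, WT1013 and KO1013 pair 1) and the group mean as a bar. *Bcan* and *Ncan* sit at 55.4 to 80.4 FPKM, *Acan* and *Hapln2* lie below the dotted line at 1 FPKM, and points of the same shape lie at like heights in both genotypes for *Hapln4*, *Tnr* and *Tnc*.

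The lecticans *Bcan* and *Ncan* were the most abundant net genes and did not differ between genotypes beyond the spread of libraries. *Bcan* encodes brevican, a proteoglycan of astrocytes and oligodendrocyte precursors that sits around synapses and nodes. It read 74.2, 70.1 and 77.5 FPKM in the WT libraries of pairs 1, 2 and 3 and 75.6, 73.9 and 80.4 FPKM in the KO libraries of the same pairs. The groups overlapped, although KO was above WT within each pair, as for 12.3% of all 12863 tested genes. The log2 fold change on log2(FPKM + 1), KO minus WT here and below, was 0.05 (SE 0.07, 95% interval -0.12 to 0.22, limma adjusted p = 1). *Bcan* was also the steadiest tested member, with an SD of 0.07 on that log2 scale over the 6 libraries, and 15.9% of tested genes varied less.

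*Ncan* encodes neurocan, a lectican that neurons and astrocytes secrete and that is cleaved as the brain matures. It read 66.7, 55.4 and 60.0 FPKM in WT of pairs 1, 2 and 3, and 70.8, 55.6 and 59.4 FPKM in KO. Pair 1 gave the highest library in each genotype and pair 2 the lowest. KO exceeded WT by a log2 fold change of 0.03 (SE 0.11, interval -0.23 to 0.28, limma adjusted p = 1). *Bcan* was above *Ncan* in 6 of 6 libraries, although their ranges over libraries overlapped (70.1 to 80.4 and 55.4 to 70.8 FPKM).

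*Vcan* encodes versican, the lectican of the loose juvenile matrix. The row of the table stands for a short model of it. Its accession, NM_001134475, is paired by GENCODE M21 with the transcript Vcan-201, which skips the 2 large exons of the full transcript Vcan-203. Those exons, 2880 bases at chr13:89702918-89705797 and 5217 bases at chr13:89688285-89693501, code for the stretches that carry the chondroitin sulphate chains. The table's exon length of 4320 bases is close to the 4330 bases that Vcan-203 has without them, against 12427 bases with them. The 2 transcripts part at the end of exon 6. The 30 coding bases on each side are given for both, with the exon that follows in capitals. They are from GENCODE on GRCm38 (minus strand, exon 6 part at chr13:89712205-89712234).
Vcan-201: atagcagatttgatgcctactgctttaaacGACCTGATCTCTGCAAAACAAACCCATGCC
Vcan-203: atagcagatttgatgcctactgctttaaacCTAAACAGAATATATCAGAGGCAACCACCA
Vcan-201 as annotated has 2321 bases, fewer than the row counts. Only lengths were compared, not the row's exons with those of either transcript, so which forms its value covers was not tested. *Vcan* read 4.79, 3.77 and 4.01 FPKM in WT of pairs 1, 2 and 3, and 4.52, 3.84 and 3.84 FPKM in KO. Both libraries of pair 1 were above the other 4, and the genotypes overlapped. For *Vcan* the log2 fold change was -0.03 (SE 0.10, interval -0.27 to 0.21, limma adjusted p = 1).

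*Acan* encodes aggrecan, the lectican most tied to mature nets, and it was the least abundant of the 9. It read 0.574, 0.625 and 0.561 FPKM in WT of pairs 1, 2 and 3 and 0.558, 0.536 and 0.568 FPKM in KO, from 89 to 161 reads per library. These levels lie in a narrow range, and the highest KO value exceeded the lowest WT value. With a mean of 0.57 FPKM it missed the minimum mean of 1 FPKM for the main test. In the fit without that minimum its log2 fold change was -0.03 (SE 0.04, interval -0.13 to 0.07, limma adjusted p = 1). Since adding 1 to the FPKM mutes changes at such a level, a fit on the recovered reads (limma voom) bears on it more, and it gave -0.08 (interval -0.39 to 0.23).

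*Acan* thus made up 0.423% ± 0.0508 of the summed lectican FPKM in WT, against 0.387% ± 0.0169 in KO (SD, n = 3 each). *Bcan* held 53.1% ± 2.07 and 53.6% ± 3.24, *Ncan* 43.5% ± 1.85 and 43.2% ± 3.13, and *Vcan* 3.0% ± 0.239 and 2.84% ± 0.163. The sum of the 4 was 139 ± 8.58 FPKM in WT, against 143 ± 8.87 in KO (SD, n = 3), and each of these means differed by less than the SD within WT.

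**Figure D2:**
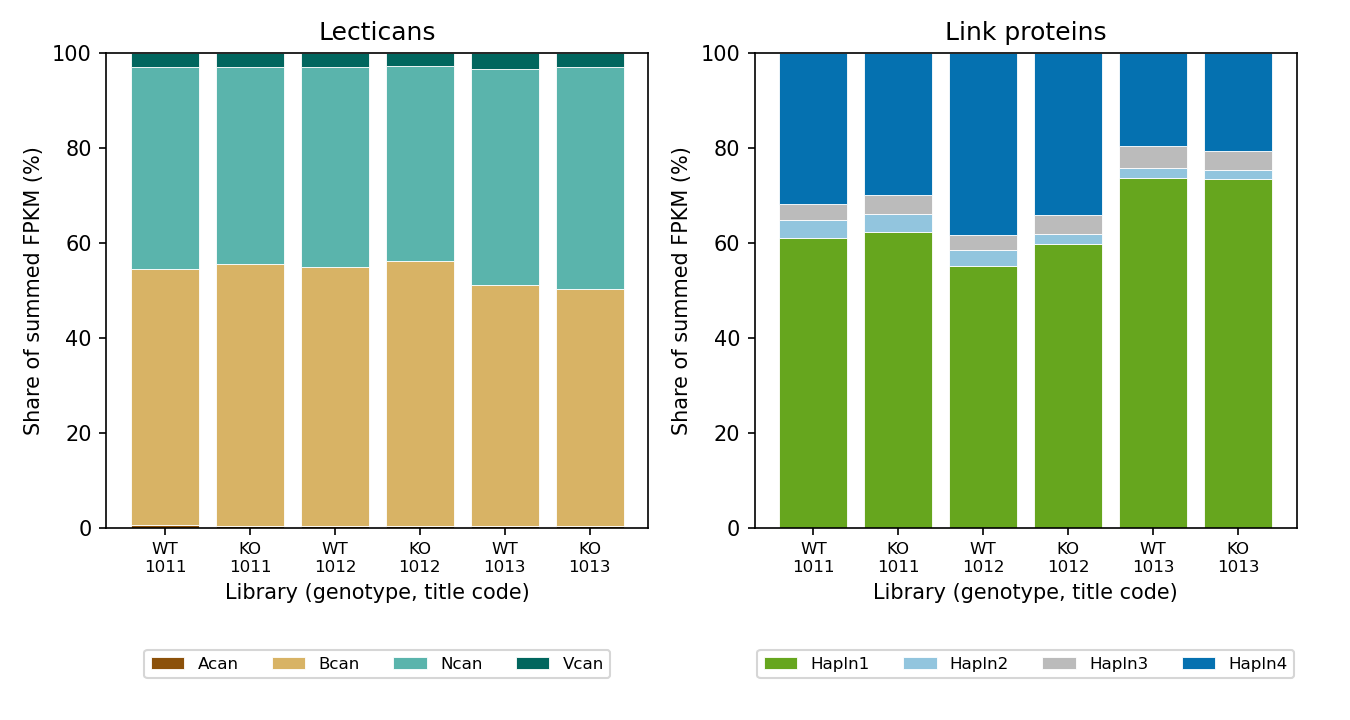
Share of each gene in the summed FPKM of the lecticans (left) and of all 4 link protein genes, the non-member *Hapln3* included (right), as stacked bars, 1 bar per library, with libraries ordered by the number in their title. *Acan* is the thin layer at the base of the left bars, and *Hapln4* holds 19.6% and 20.7% of the right bars in WT1013 and KO1013 and more, up to 38.4%, in the other 4.

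Among the link proteins, *Hapln1* was the most abundant, and no member passed the test between genotypes. *Hapln1* encodes the cartilage link protein, which neurons also make and which net assembly needs. It read 18.1, 14.4 and 12.5 FPKM in WT of pairs 1, 2 and 3 and 16.0, 15.4 and 13.7 FPKM in KO. The order of the pairs was the same in each genotype, and WT had both the highest and the lowest value. The log2 fold change was 0.01 (SE 0.13, interval -0.29 to 0.32, limma adjusted p = 1).

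*Hapln4* encodes a brain-specific link protein (Bral2) found in nets, where it partners with brevican. It read 4.83, 7.55 and 8.68 FPKM in WT of pairs 1, 2 and 3 and 4.49, 7.41 and 7.83 FPKM in KO. Within each pair KO was slightly below WT, as for 9.59% of tested genes. Pair 1 lay much farther from the other pairs than the genotypes lay from each other. Pair 3 exceeded pair 2 by a log2 difference of 0.12 (SE 0.07, limma adjusted p = 0.193), beside -0.13 for KO minus WT within pair 3. The log2 fold change was -0.08 (SE 0.23, interval -0.62 to 0.46, limma adjusted p = 1). With the pair as a block the interval narrowed to -0.21 to 0.05, and the call was the same.

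*Hapln2* encodes the other brain-specific link protein (Bral1), which oligodendrocytes make and which sits at nodes of Ranvier. It read 0.512, 0.89 and 0.761 FPKM in WT of pairs 1, 2 and 3 and 0.426, 0.971 and 0.474 FPKM in KO, on 23 to 53 reads per library. Both libraries of pair 2 were higher than the other 4, and KO1012 lay near the libraries of pair 1 while WT1012 did not. In the fit without the minimum level its log2 fold change was -0.09 (SE 0.14, interval -0.44 to 0.25, limma adjusted p = 1), and on recovered reads -0.28 (interval -1.06 to 0.50). Mature oligodendrocyte markers were also lower in KO in pair 3: the 12 markers (12 of 12 tested, none at 0) summed to 3130 FPKM in WT1012 and 2230 in KO1012. In KO the marker sum and *Hapln2* were both lower in pair 1 and both higher in pair 2. For *Hapln2* these were differences of only -0.08 and 0.06 on log2(FPKM + 1), at the few reads given above. Their orders over libraries differed, with the marker sum highest in WT1012 and *Hapln2* highest in KO1011, where the sum was 2860. Over all libraries the markers summed to 1860 to 3130 FPKM in WT and 1470 to 2860 in KO. Their part in the level of *Hapln2* was not tested.

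The tenascins showed no genotype difference past the test, and *Tnr* had the widest interval of the 9. *Tnr* encodes tenascin-R, which crosslinks lecticans and is made by oligodendrocyte-lineage cells and some interneurons. It read 8.93, 20.1 and 5.45 FPKM in WT of pairs 1, 2 and 3 and 9.35, 17.8 and 7.26 FPKM in KO. The pair 2 libraries of both genotypes stood far above the rest, and the genotypes overlapped widely. The log2 fold change was 0.08 (SE 0.44, interval -0.95 to 1.11, limma adjusted p = 1), which spans from 0.52-fold to 2.17-fold in FPKM + 1. With the pair as a block the SE was 0.09 and the interval -0.13 to 0.30, with the same call. The row's exon model has 5370 bases and ends 6807 bases before the 3′ end of the GENCODE transcript Tnr-202, which has 12202 bases, so reads in that last stretch do not enter the value.

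*Tnc* encodes tenascin-C, a glycoprotein of the developing brain made by astrocytes and progenitors. It read 3.60, 2.17 and 1.99 FPKM in WT of pairs 1, 2 and 3 and 3.59, 1.84 and 2.02 FPKM in KO. Here the pair 1 libraries stood apart, with nearly equal values in WT and KO. The log2 fold change was -0.05 (SE 0.22, interval -0.57 to 0.47, limma adjusted p = 1). *Tnr* exceeded *Tnc* 9.24-fold and 9.66-fold in WT and KO of pair 2, 2.74-fold and 3.60-fold in pair 3, and 2.48-fold and 2.60-fold in pair 1.

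By mean level over the 6 libraries the order was *Bcan*, *Ncan*, *Hapln1*, *Tnr*, *Hapln4*, *Vcan*, *Tnc*, *Hapln2* and *Acan*, with means of 75.3, 61.3, 15.0, 11.5, 6.80, 4.13, 2.53, 0.672 and 0.57 FPKM. The ranges of neighbours in this order did not overlap between *Ncan* and *Hapln1*, between *Vcan* and *Tnc*, and between *Tnc* and *Hapln2*. The other neighbours overlapped, and *Hapln2* exceeded *Acan* in 3 of 6 libraries.

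Taking the genotype comparison over the set, 0 of 7 tested members were called at a limma adjusted p under 0.05, with or without the pair as a block, where the background was 0.00777% of 12863 genes (*Chrdl1* alone). At an unadjusted p under 0.05 the count was also 0 of 7, against 0.63% of genes. WT and KO values did not overlap for 0 of 7 members, against 2.95% of genes. Without the minimum level, 0 of 9 members were called, against 0.0303% of 19781 genes. Of the 7, 4 had a fold change above 0 and 3 below, with a median of 0.01, and the median of all tested genes was 0.005. The members' summed level was 171 to 182 FPKM in WT and 176 to 185 FPKM in KO.

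**Figure D3:**
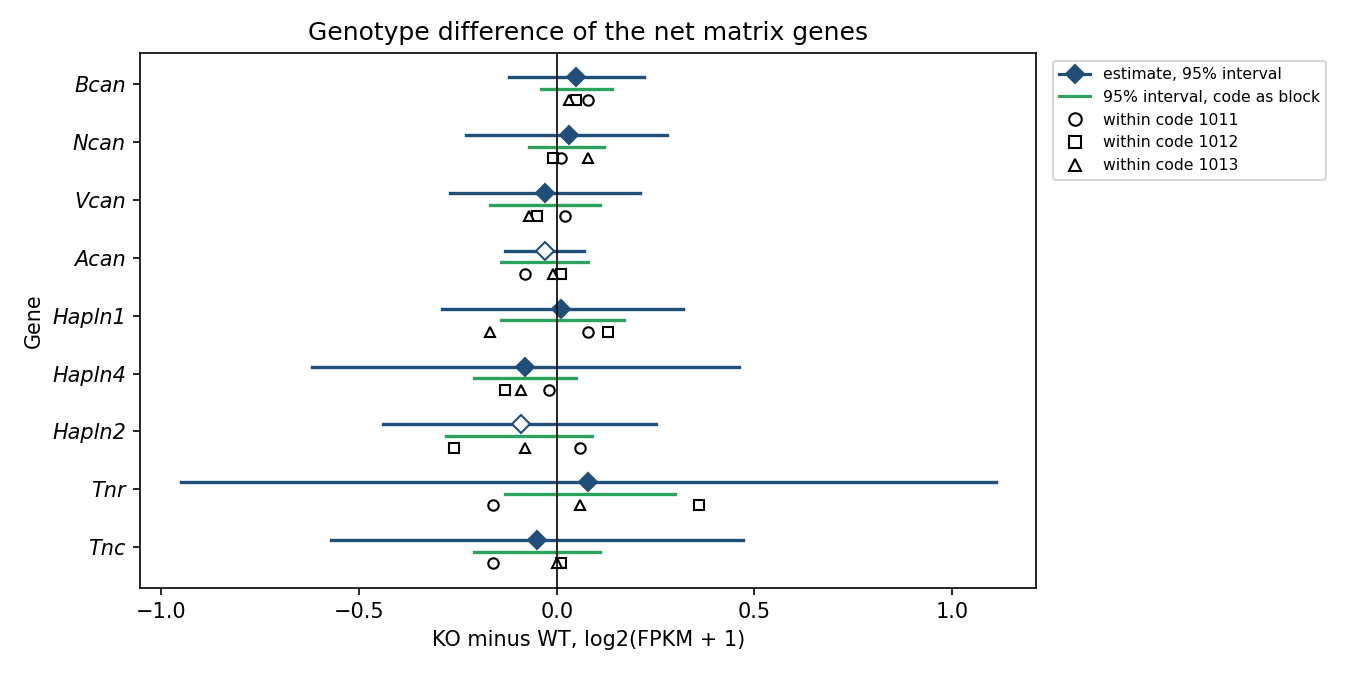
KO minus WT on log2(FPKM + 1) for each gene, with the 95% interval of the main fit in blue, that with the pair as a block in green, and the difference within each pair as open markers. Open diamonds mark *Acan* and *Hapln2*, taken from the fit without a minimum level. All 18 intervals cover 0, and that of *Tnr* is the widest at -0.95 to 1.11.

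The members did differ between pairs, a comparison that was added after their values were seen. In the fit with genotype and pair, an F test of pair called 5 of 7 members (*Tnr*, *Hapln4*, *Tnc*, *Ncan* and *Hapln1*), against 30.6% of all tested genes. Differences between pairs were thus common across the transcriptome. The limma adjusted p was 0.00195 for *Tnr*, 0.00245 for *Hapln4*, 0.00525 for *Tnc*, 0.0128 for *Ncan* and 0.0375 for *Hapln1*, and 0.0711 and 0.127 for *Vcan* and *Bcan*, which did not pass. The call of *Hapln1* was lost without WT replicate 1 (limma adjusted p = 0.114), without WT replicate 3 (0.106), without the minimum level (0.109) and without the intensity trend (0.0605). That of *Ncan* was lost without KO replicate 1 (limma adjusted p = 0.0757), and *Vcan* was called by voom on recovered reads (0.0497).

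Pair 1 differed from the other pairs in both directions among the members. Against pair 2, *Tnc* rose by 0.61 on the log2 scale (SE 0.08, limma adjusted p = 0.00834) and *Ncan* by 0.31 (SE 0.05, adjusted p = 0.0129). These were the 2 of 7 members higher in that contrast, as were 9.85% of all tested genes. The 2 members lower in it, as were 6.76% of genes, were *Hapln4* (log2 difference -0.58, SE 0.07, limma adjusted p = 0.00607) and *Tnr* (-0.97, SE 0.11, adjusted p = 0.00623).

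Against pair 3, pair 1 was higher for 3 of 7 members, with 5.6% of all genes higher. These were *Tnc* (log2 difference 0.61, SE 0.08, limma adjusted p = 0.013), *Hapln1* (0.35, SE 0.08, adjusted p = 0.0408) and *Tnr* (0.47, SE 0.11, adjusted p = 0.0458). *Hapln4* was the 1 of 7 that was lower, with 3.59% of all genes (-0.71, SE 0.07, limma adjusted p = 0.00564). The difference of *Ncan* in this contrast was 0.20 and did not pass (adjusted p = 0.0515). Both libraries of pair 1 exceeded the other 4 for 4 of 7 members (*Ncan*, *Vcan*, *Hapln1* and *Tnc*), as for 14.0% of all tested genes, and lay below them for *Hapln4*, as for 8.57%. Of the summed FPKM of *Hapln1*, *Hapln2*, *Hapln4* and the non-member *Hapln3*, *Hapln1* held 73.6% and 73.4% in WT1013 and KO1013 and 55.2% to 62.2% in the other libraries.

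*Tnr* had another order of pairs. It was the 1 of 7 members lower in pair 3 than in pair 2 (log2 difference -1.45, SE 0.11, limma adjusted p = 0.000777), as were 13.8% of all genes, and 0 of 7 were higher (15.6% of genes). Its SD of 0.67 on the log2 scale over the 6 libraries exceeded that of 99.7% of tested genes, and *Hapln4* and *Tnc* exceeded 96.9% and 96.3%. *Tnr* also spans 401 kb of genome, more than 98.3% of tested genes. In genes of 100 kb or more, 31.6% were highest in both libraries of pair 2, against 10.1% of genes under 10 kb and 19.4% of all. The median log2 difference of pair 2 from the other pairs was 0.06 in those long genes, and it was 1.21 for *Tnr*. The part of gene span in the level of *Tnr* was not tested.

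The 5 tested genes whose centred log2 profile over the 6 libraries lay nearest to that of *Tnr* were *Hmbox1*, *Lnpep*, *Hipk2*, *Dgkh* and *Ppp1r12b*, with root mean square differences of 0.08, 0.09, 0.10, 0.11 and 0.12. *Hmbox1* read 2.97, 7.11 and 1.67 FPKM in WT of pairs 1, 2 and 3 and 2.71, 6.75 and 1.995 FPKM in KO. These genes were chosen for their likeness to *Tnr*, so their pattern over pairs and genotypes is a description.

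Cell type marker lists held differing numbers of genes called between pairs, beside 30.6% of all tested genes. *Pvalb*, the parvalbumin gene, read 13.8, 21.9 and 34.3 FPKM in WT of pairs 1, 2 and 3 and 12.1, 29.2 and 22.2 FPKM in KO, lowest in pair 1 in each genotype. *Syt2*, a synaptotagmin gene of the same marker list, read 3.55, 5.02 and 2.25 FPKM in WT and 3.10, 5.85 and 2.26 FPKM in KO, lowest in pair 3. The 9 parvalbumin interneuron markers (9 of 9 tested, none at 0) summed to 168 to 220 FPKM in WT and 153 to 205 in KO, and 6 of 9 were called between pairs. The 12 mature oligodendrocyte markers summed to 1860 and 1470 FPKM in WT1013 and KO1013 and to 2230 to 3130 in the other libraries, with 11 of 12 called between pairs. Of 8 oligodendrocyte precursor markers 0 were called between pairs, and their sum was 175 to 185 FPKM in WT and 176 to 192 in KO. The 10 astrocyte markers summed to 839 to 885 FPKM in WT and 805 to 926 in KO, with 6 of 10 called between pairs. The 10 meningeal fibroblast markers summed to 66.1 to 73.8 FPKM in WT and 74.3 to 93.3 in KO, with 0 of 10 called. In the remaining lists, 5 of 8 excitatory neuron, 3 of 10 endothelial and mural, 2 of 7 microglia and 2 of 9 striatal markers were called between pairs. The 1 tested choroid plexus marker was not. The part of these cell types in the levels of the members was not tested.

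**Figure D4:**
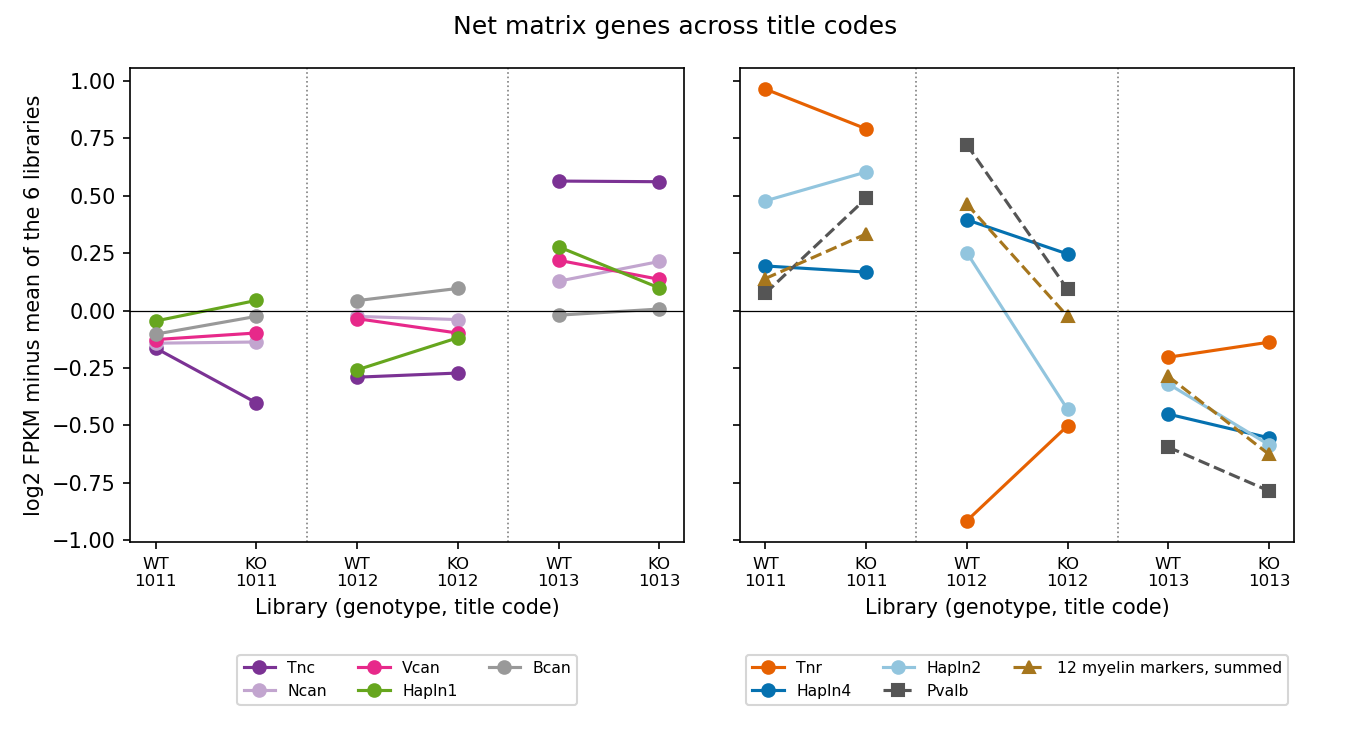
Log2 FPKM of each gene minus its mean over the 6 libraries, ordered by the number in the title, with lines joining the WT and KO library of a pair. At left *Tnc*, *Ncan*, *Vcan* and *Hapln1* lie highest in WT1013 and KO1013. At right *Hapln4*, *Pvalb* and the summed myelin markers lie lowest in those libraries, and *Tnr* is highest in WT1011 and KO1011.

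Of the genes that build, cut or bind the net, 0 in 5 lists were called between genotypes, where 0.00777% of all tested genes were. Of 10 genes for hyaluronan synthesis, breakdown and binding, 4 were tested and 0 called. *Cemip*, a hyaluronan-depolymerising protein gene, read 10.9 ± 2.26 FPKM in WT, against 12.1 ± 1.11 in KO (SD, n = 3), and the cell-surface hyaluronidase gene *Tmem2* 4.37 ± 0.423 and 4.64 ± 0.559. The synthase genes *Has1*, *Has2* and *Has3* were below the minimum level. Of 21 genes for chondroitin sulphate chains, 18 were tested and 0 called, with a median log2 fold change of 0.01. Among these, *Dse*, whose enzyme turns glucuronic into iduronic acid, read 1.39, 1.35 and 1.09 FPKM in WT of pairs 1, 2 and 3 and 1.74, 1.497 and 1.396 FPKM in KO. Its groups did not overlap, by a margin under 0.01 FPKM, as for 2.95% of all tested genes, and the log2 fold change was 0.16 (SE 0.10, limma adjusted p = 1). The sulphotransferase gene *Ust* read 10.1 to 12.1 FPKM in WT and 11.1 to 11.8 FPKM in KO.

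Of 21 genes for matrix proteases and their inhibitors, 16 were tested and 0 called, and *Mmp3* was listed at 0 in every library. *Adamts1*, which encodes a protease that cleaves lecticans, read 2.15 ± 0.277 FPKM in WT, against 2.66 ± 0.231 in KO (SD, n = 3). Its log2 fold change was 0.22 (SE 0.10, interval -0.01 to 0.45, limma adjusted p = 1). With the pair as a block the interval was 0.03 to 0.41 (limma adjusted p = 0.999). The inhibitor gene *Timp3* read 17.5 ± 0.0491 FPKM in WT and 19.0 ± 1.56 in KO. Its groups did not overlap, as for 2.95% of all tested genes, but the highest WT value (17.546) and the lowest KO value (17.557) nearly met. The log2 fold change of *Timp3* was 0.11 (SE 0.08, interval -0.07 to 0.29, and -0.02 to 0.24 with the pair as a block). Of 10 genes for other brain proteoglycans and tenascins, 8 were tested and 0 called. The small proteoglycan genes *Dcn* (decorin) and *Bgn* (biglycan), which are also strong in meninges and vessels, read 22.8 ± 1.37 and 7.86 ± 0.378 FPKM in WT and 27.6 ± 4.33 and 8.83 ± 0.843 in KO. Neither passed the test (limma adjusted p = 1 for each, and 0.999 with the pair as a block). The block intervals were 0.11 to 0.39 for *Dcn* and 0.01 to 0.29 for *Bgn*. In that fit 503 of all 12863 tested genes had an unadjusted limma p under 0.05. The part of meningeal cells, whose marker sums are given above, was not tested.

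Of 15 genes for net receptors and net-bound proteins, 14 were tested and 0 called. *Sema3a* encodes semaphorin 3A, a repulsive guidance protein that nets hold through their chondroitin sulphate. It read 6.88, 6.63 and 6.42 FPKM in WT of pairs 1, 2 and 3 and 6.19, 5.14 and 5.62 FPKM in KO. The KO values were all below the WT values, as WT and KO values failed to overlap for 2.95% of tested genes. Its log2 fold change was -0.20 (SE 0.08, interval -0.40 to -0.01), and it did not pass over all genes (limma adjusted p = 1, and 0.999 with the pair as a block). The semaphorin receptor gene *Nrp1* read 7.96 ± 1.03 FPKM in WT, with 8.89 ± 0.776 in KO (SD, n = 3). The 5 lists had medians of 0.05, 0.01, 0.02, 0.05 and 0.04 in the order given, beside 0.005 for all tested genes.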

How the data were processed

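The authors deposited 1 table of FPKM values per gene and library, made with HOMER's analyzeRepeats over exons with 1 condensed row per gene on mm10, per the file headers. STAR 2.4.0k, HOMER 4.8.3 and FastQC are named in the submitters' processing notes. The header names no strand option, and 6 of the 12 libraries it lists have no column here and were not analysed. Groups come from the library titles. Replicates 1, 2 and 3 of a genotype have the titles WT1013 or KO1013, WT1011 or KO1011, and WT1012 or KO1012, and make pairs 1, 2 and 3. FPKM values rise in steps of 1 read, from which totals and reads were recovered. Of the values checked (under 200 reads), 100.0% were whole within 0.1 read.

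Tests were 2-sided, on log2(FPKM + 1), by limma 3.58.1 under R 4.3.3 with an intensity trend, over the 12863 genes with a mean of at least 1 FPKM, with Benjamini-Hochberg adjustment over all of them and a threshold of 0.05. The fit was also run on simulated data, and how many small changes it misses is not reported here. Libraries with the same replicate number deviated together from their genotype's mean (correlations of 0.43, 0.71 and 0.67, and -0.61 to -0.06 otherwise). The pair was therefore also fitted as a replicate block. Deviations of the 3 libraries of a genotype sum to 0, so positive values within pairs pull the others below 0. Alternatives were other pseudocounts, filters, scalings, variance models, array weights, voom on recovered reads and leaving out libraries. The members and lists were chosen with earlier results of these data known. Named genes are *Chrdl1*, all members, the 2 smallest unadjusted p of each pathway list and the 5 profiles nearest to the most variable tested member. *Pvalb*, *Syt2*, *Ttr*, *Has1*, *Has2*, *Has3* and *Mmp3* were named after their values were seen. Motifs and sequences come from RefSeq (GRCm38.p6) and GENCODE M21 (GRCm38). Python 3.11.15 with pandas 2.3.3 was used.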

Additional observations from a re-analysis of the deposited data

How the results depend on the processing

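No member was called between genotypes under any of the 20 alternatives tried, in 174 fitted values with a lowest limma adjusted p of 0.995. With both libraries of pair 1 or of pair 2 left out, *Chrdl1* itself was not called. The lack of a called member in those fits therefore carries little weight. The count of all genes called, 1 in the main fit, was 2 with a pseudocount of 0.1, 6 without a filter, 0 at a mean of 5 FPKM or more (where *Chrdl1* is not tested, and 34 genes had an unadjusted limma p under 0.05), and 0 with both libraries of pair 2 (208 at the unadjusted threshold) or of pair 1 (29) left out. It ran from 1 to 4 when 1 library was left out, with 2 without WT replicate 2 and 4 without KO replicate 2. The replicate block changed no call (1 gene called, 0 members). Directions of members near 0 did turn. With 1 library left out the log2 fold change ranged from -0.07 to 0.10 for *Ncan*, -0.09 to 0.05 for *Vcan*, -0.10 to 0.15 for *Hapln1*, -0.29 to 0.14 for *Hapln4*, -0.30 to 0.55 for *Tnr* and -0.27 to 0.14 for *Tnc*, and without a turn from 0.01 to 0.09 for *Bcan*, -0.04 to -0.01 for *Acan* and -0.24 to -0.01 for *Hapln2*. With array weights *Hapln1* was at -0.11 and *Hapln4* at 0.01. With both libraries of a pair left out, chosen after seeing the data, *Hapln1* was at -0.02 (pair 2) and -0.04 (pair 3), *Tnr* at -0.05 (pair 3), *Ncan* at 0.00 (pair 1) and *Tnc* at 0.00 (pair 2). The cause was not tested. The number of genes called between pairs, 3936 of 12863, was 1347 without a filter and 2038 to 3923 with 1 library left out (2038 without WT replicate 1, 2076 without KO replicate 1), and 4 to 6 members were called in every alternative run. *Hapln2* had the fewest reads of the members, 23 to 53 per library, and how far depth sets its interval was not tested.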
